A study of Mus musculus with 12 samples.

Results

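The enzymes described here are 9 genes of the citrate cycle in mouse myocardium, the muscle wall of the heart: Cs, Idh2, Idh3a, Idh3b, Idh3g, Ogdh, Dlst, Fh1 and Mdh2. They were chosen by name from the gene column of a deposited table of transcript abundances, and their transcripts were summed to 1 value per gene. The table held 33641 gene symbols, of which 13158 were tested, those with 1 TPM or more in no fewer than 3 of the 12 libraries. All 9 enzymes were among them, so no enzyme was lost to the filter. TPM is a length-adjusted share of a library, scaled so that each library sums to 1000000.

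The hearts came from male wild-type C57BL/6 mice in 4 groups of 3. Each mouse had sham surgery or a myocardial infarction (MI), the death of heart muscle after its blood supply is cut. From 2 weeks after surgery, each mouse received vehicle or prednisone, a glucocorticoid drug. Prednisone was given at 1 mg/kg into the peritoneum at lights-on, once weekly for 6 weeks, and the heart was sampled 24 hours after the last dose. The groups were sham with vehicle, sham with prednisone, MI with vehicle and MI with prednisone. The labels give an age of about 16 weeks in the model description and about 10 weeks in the treatment protocol. They do not say which region of the infarcted heart was taken. Prednisone was diluted in PBS from a stock in DMSO, and the labels do not say what the vehicle held. Titles number the samples within each group, and p-values measure the spread between those samples.

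The citrate cycle runs in the mitochondrial matrix and oxidises the acetyl group that fatty acids, glucose and ketones deliver as acetyl-CoA. Citrate synthase joins acetyl-CoA to oxaloacetate, isocitrate dehydrogenases and the 2-oxoglutarate dehydrogenase complex release carbon dioxide, and fumarase and malate dehydrogenase regenerate oxaloacetate. The NADH made on the way feeds the respiratory chain, on which the beating heart depends for nearly all of its ATP. Heart muscle cells are packed with mitochondria, so the transcripts of these enzymes are abundant in myocardium.

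The comparisons touch a difference in overall scale that bears on every value below. The median change over all 13158 genes was 0.39 on the log2 scale for MI against sham under vehicle, and -0.41 for prednisone against vehicle after MI. Under median-ratio rescaling, which sets the typical gene to be equal between libraries, those medians became 0.0045 and -0.015, and enzyme changes are therefore given on both scales. A further setting, called length correction, took out each library's trend with transcript length. It also removed the difference in overall scale, and the same medians became -0.021 and 0.030. A move after length correction therefore mixes length and scale. In the order MI against sham under vehicle and under prednisone, prednisone against vehicle after MI and in sham hearts, the interaction, and MI prednisone against sham vehicle, rescaling called 6.46%, 25.4%, 28.2%, 0.122%, 8.67% and 21.9% of all genes. Length correction called 5.65%, 12.8%, 16.5%, 0.114%, 2.1% and 12.5%. With each gene's most abundant transcript in place of its sum, 22.4% were called in the interaction and 13.8% between MI prednisone and sham vehicle. The median-ratio size factor of MI vehicle mouse 3 was 1.68, against 0.857 to 1.13 in the other 11 libraries, and leaving that mouse out changed no count of enzymes called below. Mitochondrially encoded transcripts held 21.6% to 42.0% of the TPM in a library, with 24.6%, 21.6% and 35.9% in the 3 hearts with MI and prednisone. The summed level of 10 heart muscle cell markers was 43685 to 46562 TPM in sham hearts with vehicle, 45189 to 52287 with prednisone, 31732 to 40495 after MI with vehicle and 44666 to 47560 after MI with prednisone. The 8 fibroblast markers summed to 392 to 529, 445 to 531, 934 to 1269 and 343 to 595 TPM in the same order, and the 8 macrophage markers to 269.98 to 386, 309 to 413, 606 to 1335 and 303 to 550.0 TPM. Markers of the atria, the upper chambers, summed to 865 to 2534, 2019 to 2731, 2836 to 4161 and 4387 to 6224 TPM, highest in every heart with MI and prednisone, and 3 of the 6 were called higher with prednisone after MI (median 1.30). From sham to MI hearts with vehicle, mean TPM rose for Nppa (904 to 2706) and Dkk3 (16.8 to 27.3). It was lower after MI for Myl7 (445 to 308), Myl4 (341 to 244), Sln (48.0 to 31.9) and Bmp10 (12.7 to 11.2). The 10 heart muscle cell markers did not all move alike. With prednisone after MI, 3 were called higher and 1 lower, where 2.5% and 34.9% of all genes were. Mean TPM fell there for Atp2a2 (1865 to 1274), Pln (2089 to 1621), Ryr2 (42.9 to 30.2) and Actc1 (5222 to 4474), and 6 changes were positive. Under prednisone, 4 of the 10 were called lower in MI than in sham hearts, against 14.1% of all genes. No marker on these lists was at 0 in a library. In tissue like this, fewer cells of a type and less RNA per cell cannot be told apart, and the part of cell makeup in the changes below was not tested.

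In sham hearts with vehicle, Idh2 was the most abundant of the 9 transcripts, at 923 ± 40 TPM (SD, n = 3), and Dlst the least, at 164 ± 9.0 TPM (SD, n = 3). Mdh2 (703 TPM), Ogdh (483 TPM), Idh3b (408 TPM), Cs (380.3 TPM), Idh3g (304 TPM), Idh3a (219 TPM) and Fh1 (211 TPM) lay between them as group means. Each neighbouring pair in that order was separated in all 3 libraries, except Idh3a and Fh1, whose values overlapped. After MI with prednisone the order itself was different: Ogdh stood below Idh3b and Fh1 stood above Idh3a. In that group only 2 neighbouring pairs were clearly apart, Mdh2 from Idh3b and Fh1 from Idh3a. Together the 9 enzymes held 0.312% to 0.435% of a library's TPM.

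**Figure D1:**
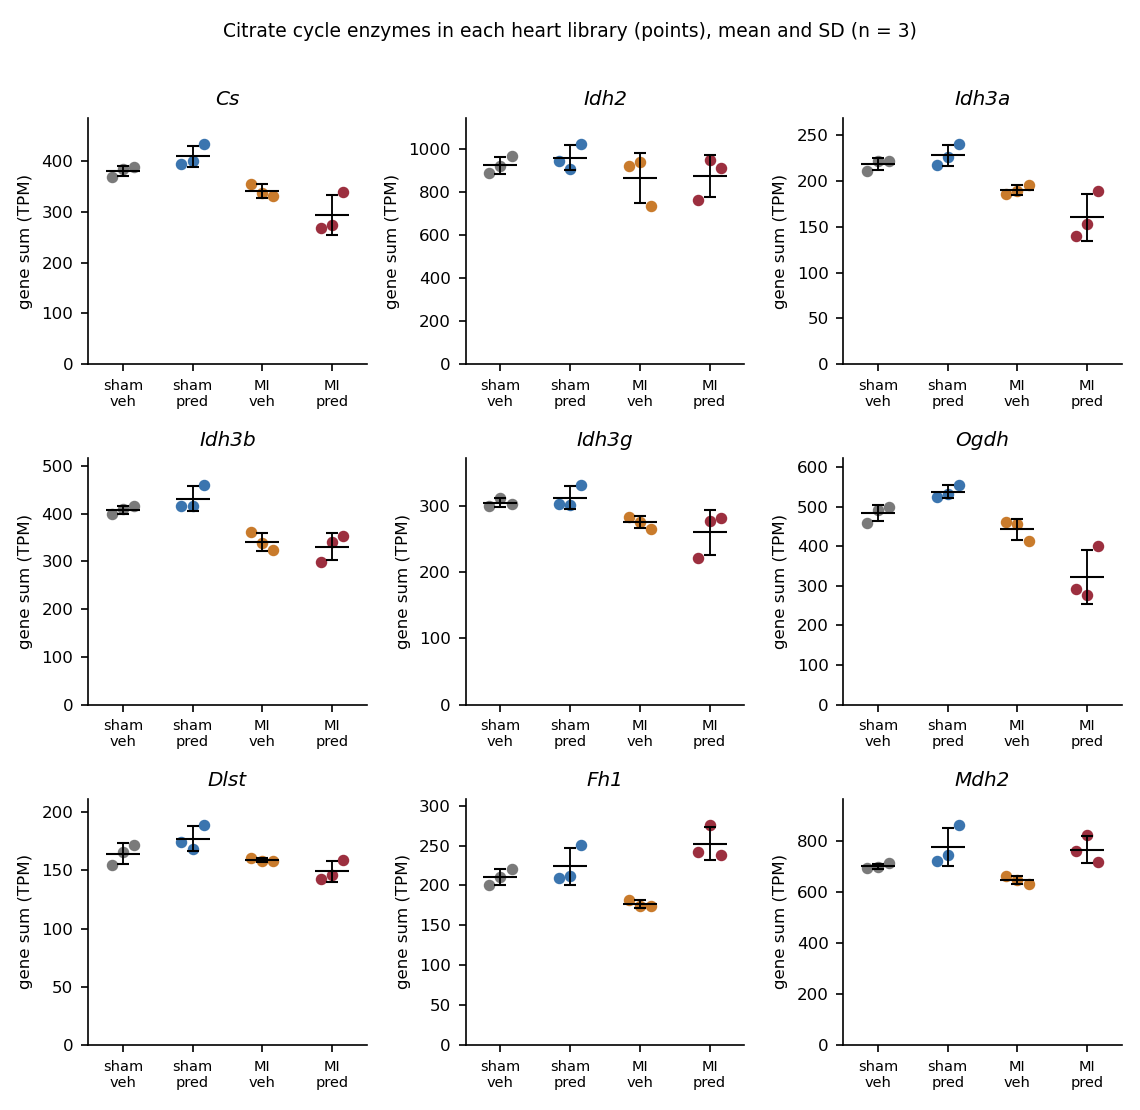
TPM of each enzyme (vertical axis, from 0) in the 12 libraries, grouped by surgery and treatment; points are libraries, and the bar and whiskers are the mean and SD of 3. Most enzymes step down from sham to MI, whereas Fh1 has its highest mean in the hearts with MI and prednisone. Those hearts were at 238 to 276 TPM, against 174 to 182 TPM after MI with vehicle and 209 to 251 TPM in sham hearts with prednisone.

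MI under vehicle left all 9 enzymes at lower mean TPM than in sham hearts, by 0.045 to 0.26 on the log2 scale, but none passed the test (limma, Benjamini-Hochberg adjusted p from 0.0676 to 0.679). Of all genes, 16% were called in this comparison, 15.1% higher and 0.904% lower. At an unadjusted p under 0.05 there were 2 enzymes, Idh3b and Fh1, and 5557 of all 13158 genes. For Cs, Idh3a, Idh3b, Idh3g, Fh1 and Mdh2, the 3 infarcted hearts all lay below the 3 sham hearts, an arrangement seen in 4.17% of all genes. The median change of the enzymes was -0.15, against 0.39 over all genes. After rescaling, where 6.46% of all genes were called, the 9 changes ran from -0.72 to -0.50 and 3 enzymes were called lower, namely Fh1 (-0.71), Idh3b (-0.72) and Idh3a (-0.65), against 3.22% of all genes called lower on that scale.

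Under prednisone, MI hearts had lower transcript levels of 4 enzymes than sham hearts: Ogdh, Idh3a, Cs and Idh3b. Of all genes, 16.8% were called in this comparison and 14.1% were called lower. The largest difference was in Ogdh, -0.75 ± 0.13 (log2 change ± SE, adjusted p = 0.00361). Idh3a differed by -0.52 ± 0.11 (adjusted p = 0.00918), Cs by -0.48 ± 0.10 (adjusted p = 0.00893) and Idh3b by -0.39 ± 0.09 (adjusted p = 0.0158), all from the same limma fit. Fh1 and Mdh2 were not called (0.17 and -0.02). For Cs, Idh3a, Idh3b, Idh3g, Ogdh and Dlst, all 3 MI hearts lay below all 3 sham hearts, as in 32.2% of all genes. None of the 9 was called after rescaling, where Ogdh was at -0.66 and Idh3a at -0.43, nor after correction for transcript length. The Idh3b call was also lost without sham prednisone mouse 3 (adjusted p = 0.0670) or MI prednisone mouse 1 (adjusted p = 0.0776), with a range of 0.00964 to 0.262 over 16 alternatives.

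With prednisone after MI, on the TPM scale, Fh1 was 1.42-fold its vehicle level and Ogdh 0.720-fold, the 2 enzymes called. Ogdh was at -0.01 on the log2 scale after rescaling and turned to 0.12 after length correction, neither called, and Fh1 was called on both. Of all genes, 37.4% were called here, 2.5% higher and 34.9% lower, and 1 enzyme of 9 called lower is a smaller share than the background. The groups did not overlap for Fh1 and Mdh2, higher in all 3 treated hearts as in 3.59% of all genes, and for Ogdh, lower in all 3 as in 42.6%. The other 7 enzymes were not called, with changes from -0.26 (Idh3a) to 0.24 (Mdh2). The median over the 9 was -0.089, against -0.41 over all genes. After rescaling, 8 of the 9 changes were positive, from 0.21 (Idh3a) to 0.97 (Fh1), and the enzymes called were Fh1 and Mdh2, against 14.3% of all genes called higher on that scale.

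In sham hearts prednisone changed none of the 9 enzymes detectably: no adjusted p was below 1 and no unadjusted p was under 0.05 in the limma fit. Only 0.114% of all genes were called in this comparison. The 9 changes were all positive on the TPM scale, from 0.034 (Idh3g) to 0.15 (Ogdh), around a median of 0.082 where all genes had a median of 0.072. Rescaling left 4 of the 9 positive, with changes from -0.048 to 0.071. Cs, Idh3b, Mdh2 and Ogdh lay higher in all 3 treated sham hearts than in the 3 with vehicle, as did 15.6% of all genes.

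The interaction asks whether prednisone did something different after MI than after sham surgery. Ogdh was the 1 enzyme called, with a difference between the prednisone changes of -0.63 ± 0.18 (log2 ± SE, adjusted p = 0.0329), where 21.3% of all genes were called and 20.7% lower. Fh1 stood at the threshold without passing it (0.43 ± 0.14, adjusted p = 0.05004). The Ogdh interaction was -0.08 after rescaling and 0.07 after length correction, and it was not called when any 1 of 9 of the 12 libraries was left out; its adjusted p ran from 0.00232 to 0.930 over 21 alternatives. Those 9 were all 6 sham libraries, MI vehicle mouse 2 and MI prednisone mice 1 and 2, and without them the adjusted p was 0.0544 to 0.0847. Between MI hearts with prednisone and sham hearts with vehicle, Ogdh (-0.60), Idh3a (-0.45) and Cs (-0.38) were called lower, where 12% of all genes were called and 8.41% lower; no enzyme was called after rescaling, and none when sham vehicle mouse 2 or 3, or MI prednisone mouse 1 or 2, was left out.

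**Figure D2:**
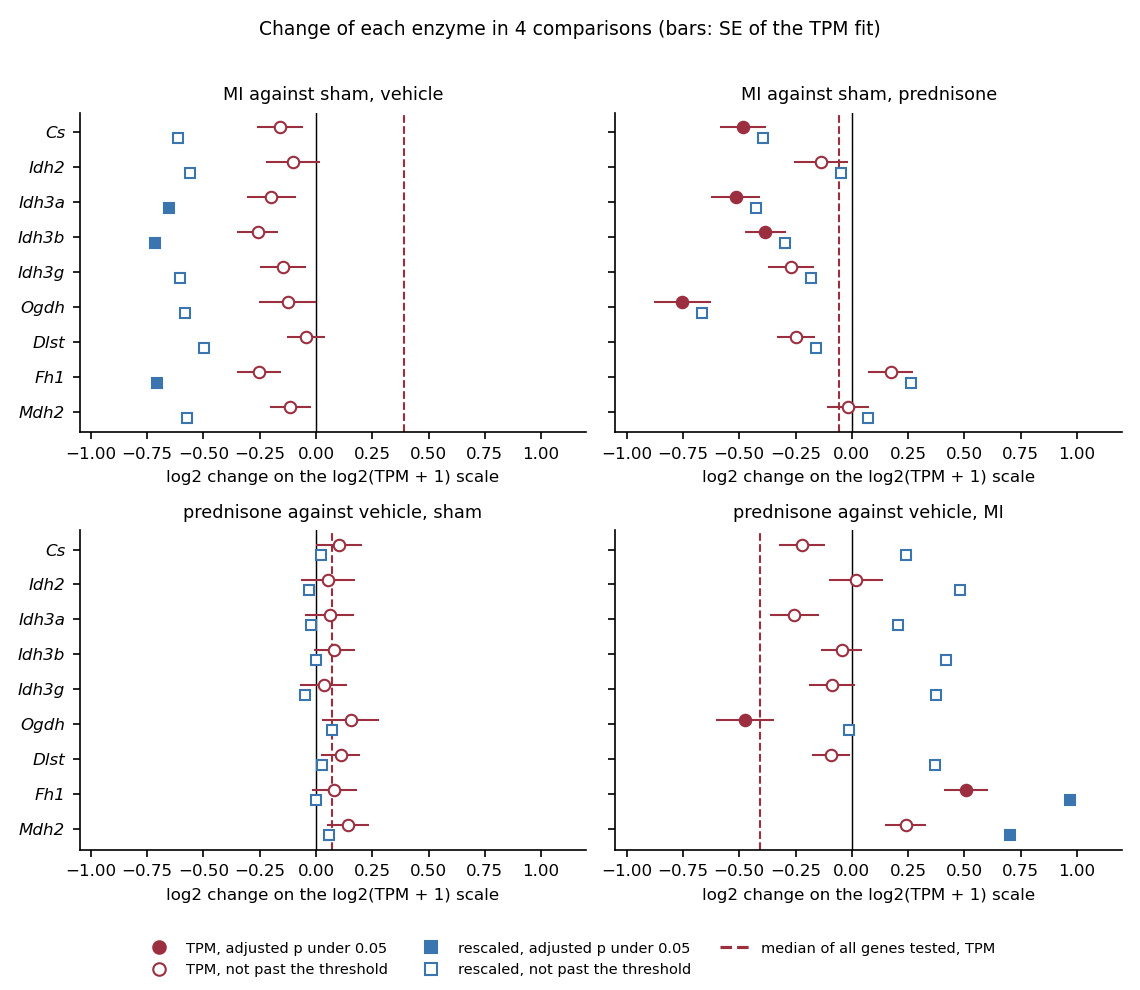
Log2 change of each enzyme (horizontal axis) in 4 comparisons; circles with SE bars are the TPM fit, squares the rescaled fit, filled symbols an adjusted p under 0.05, and the dashed line the median of all genes tested on the TPM scale. After MI under vehicle the enzymes sit at -0.26 to -0.045 while the median gene sits at 0.39, and with prednisone after MI Fh1 stands furthest to the right at 0.51.

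Citrate synthase, encoded by Cs (chromosome 10, 128337734 to 128362479, + strand, GRCm38), makes the first product of the cycle, and its activity is widely used as a measure of mitochondrial content. Cs was 369, 384 and 388 TPM in sham hearts with vehicle and 394, 399 and 433 TPM in sham hearts with prednisone. After MI it was 356, 336 and 331 TPM with vehicle and 267, 273 and 339.7 TPM with prednisone. In TPM, every MI library lay below every sham library. For this split of all MI from all sham libraries, here and below, no share of all genes was counted. Within MI, prednisone mouse 3 fell among the vehicle hearts in TPM, while mice 1 and 2 were the lowest of the 12. After rescaling, Cs in MI prednisone mouse 3 (393) lay above sham vehicle mouse 2 (384). Prednisone against vehicle after MI was -0.22 ± 0.10 and not called (adjusted p = 0.102), but it was called without MI prednisone mouse 3 (-0.33, adjusted p = 0.0127; range over 16 alternatives 0.0127 to 0.506).

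The NAD-dependent isocitrate dehydrogenase is the regulated enzyme of this step and is built from a catalytic alpha chain (Idh3a) with beta (Idh3b) and gamma (Idh3g) chains, whereas Idh2 encodes the NADP-dependent mitochondrial enzyme, which supplies NADPH for antioxidant defence. Of the 3 chains, the catalytic one had the largest point change between MI and sham hearts under prednisone. Idh3a was 211, 222 and 222 TPM in sham hearts with vehicle, 218, 227 and 240.3 with prednisone, 186, 189 and 196 after MI with vehicle, and 139.6, 153 and 189 after MI with prednisone. The sham and MI libraries did not overlap, and prednisone mice 1 and 2 after MI were the lowest. Prednisone against vehicle after MI was not called for Idh3a (-0.26 ± 0.11, limma adjusted p = 0.0840), but was without MI prednisone mouse 3 (-0.38, adjusted p = 0.00832; range over 16 alternatives 0.00541 to 0.636).

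The beta chain, Idh3b, was 399, 409 and 415 TPM in sham hearts with vehicle, 417, 417 and 461 with prednisone, 361, 338 and 323 after MI with vehicle, and 299, 341 and 353 after MI with prednisone. Idh3b separated sham from MI under both treatments and did not separate the treatments after MI (-0.05 ± 0.09). Idh3g, the gamma chain, lay between 220.4 and 283 TPM in the 6 MI hearts and between 299 and 332 TPM in the 6 sham hearts. Its sham and MI libraries thus did not overlap in TPM, but after rescaling MI prednisone mouse 3 (326.7) lay above sham prednisone mouse 3 (326.2). Idh3g was not called in any of the 6 comparisons. The ratio of Idh3b to Idh3a was 1.65 to 1.94 in the 9 libraries outside the MI prednisone group, and 2.14, 2.23 and 1.86 within it. The groups of Idh2 overlapped in TPM in every comparison: it was 886, 919 and 965 TPM in sham hearts with vehicle, 944, 909 and 1022 with prednisone, 922, 940.2 and 733 after MI with vehicle and 761, 949 and 912 after MI with prednisone. The 2 low Idh2 values came from 1 heart in each MI group. After rescaling, all 3 MI hearts with vehicle lay below the 3 sham hearts with vehicle for Idh2 (-0.56), which was not called (adjusted p = 0.148).

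Ogdh encodes the E1 component of the 2-oxoglutarate dehydrogenase complex, which decarboxylates 2-oxoglutarate, and Dlst the E2 component, which carries the resulting succinyl group to coenzyme A. The pair are parts of 1 enzyme complex, and after MI with prednisone there was less Ogdh transcript for each Dlst transcript than in the other groups. Ogdh was 459.9, 491 and 499 TPM in sham hearts with vehicle, 525, 531 and 556 with prednisone, 462, 455 and 412 after MI with vehicle, and 291, 277 and 400.1 after MI with prednisone. In TPM, the MI prednisone hearts lay below all others, with mouse 3 just under the lowest MI vehicle heart. No share of all genes was counted for that split. After rescaling, Ogdh in MI prednisone mouse 3 (463) lay above every MI vehicle heart. Dlst was 154, 166 and 172 TPM, then 175, 168 and 189, then 161, 158 and 158, and then 142, 146 and 159 in the same order of groups. The Dlst groups overlapped for prednisone against vehicle in MI, where its change was -0.09 ± 0.09. The ratio of Ogdh to Dlst was 2.61 to 3.16 in the other 9 hearts, and 2.05, 1.89 and 2.51 in the 3 with MI and prednisone. The ratio within a library does not depend on its scaling, but it can depend on transcript length. Weighted by abundance, the mean length was 4053 bases for Ogdh and 2764 for Dlst. With prednisone after MI, the median change was -0.47 for genes of 2000 up to 4000 bases and -0.67 from 4000 up to 8000. After length correction, the change there was 0.12 for Ogdh and 0.39 for Dlst. The part of length in the ratio was not tested.

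For Ogdh, prednisone against vehicle after MI was -0.47 ± 0.13 (limma adjusted p = 0.0149). The call was lost without MI prednisone mouse 1 (-0.41, adjusted p = 0.0607) or mouse 2 (-0.37, adjusted p = 0.0556), after rescaling (-0.01, adjusted p = 0.979), after length correction (0.12, adjusted p = 0.689), in a fit of the 2 groups compared alone (adjusted p = 0.113) and with its most abundant transcript alone (-0.20, adjusted p = 0.199). The adjusted p ran from 0.000829 to 0.979 over 16 alternatives.

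Fh1 encodes fumarase, which hydrates fumarate to malate, and Mdh2 the mitochondrial malate dehydrogenase, which oxidises malate to oxaloacetate and closes the cycle. With prednisone after MI, Fh1 was called higher and Mdh2 was higher in all 3 hearts without passing the test. Fh1 was 201, 211 and 221 TPM in sham hearts with vehicle, 209, 212 and 251 with prednisone, 182, 174 and 175 after MI with vehicle, and 242, 276 and 238 after MI with prednisone. All 3 MI prednisone hearts lay above all MI vehicle hearts and above all sham hearts with vehicle. Sham prednisone mouse 3 (251 TPM) lay above MI prednisone mice 1 and 3 (242 and 238 TPM). The change with prednisone after MI was 0.51 ± 0.10 (limma adjusted p = 0.00360). It was 0.97 after rescaling and 0.79 after length correction, and the call was lost in 1 of 16 alternatives, the fit of those 2 groups alone (adjusted p = 0.0564, range 0.000437 to 0.0564). The lowest of that range came from the most abundant transcript, which for Fh1 is the 542-base Fh1-205. The 2636-base Fh1-201 had a change of -0.28 and was not called, as described below. Length correction used 1 mean length per gene, 1520 bases for Fh1, and does not separate those 2 transcripts.

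Mdh2 was 695, 698 and 715 TPM in sham hearts with vehicle, 723, 745 and 864 with prednisone, 664, 650.0 and 634 after MI with vehicle, and 761, 824 and 717 after MI with prednisone. The 2 MI groups did not overlap, and 3.59% of all genes lay higher in all 3 prednisone hearts after MI. Its change of 0.24 ± 0.09 missed the threshold (limma adjusted p = 0.0612), and passed it after rescaling (0.70, adjusted p = 0.0144) and without MI prednisone mouse 3 (0.29, adjusted p = 0.0420); over 16 alternatives the adjusted p ran from 0.00892 to 0.219. Counting only its most abundant transcript gave a call in the other direction (-0.44, adjusted p = 0.00892).

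The gene sums of Fh1 and Mdh2 each combine a longer and a shorter transcript whose changes had opposite signs, and the annotated structures show how those transcripts differ. Fh1 lies on chromosome 1 (175600374 to 175625635, - strand) and Mdh2 on chromosome 5 (135778480 to 135790398, + strand) of GRCm38. The 542-base Fh1-205 is made wholly of bases that are also in the 2636-base Fh1-201. It starts within exon 6 of Fh1-201, leaves out exon 7 and ends within exon 10. The 1112-base Mdh2-203, annotated as a target of nonsense-mediated decay, lacks exon 2 of the 1456-base Mdh2-201. Fh1 exon 7 is 204 bases long, a multiple of 3, and Mdh2 exon 2 is 169 bases long, which leaves 1 base over when divided by 3. Both exons are wholly coding.

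Mdh2 exon 2 and the junction that replaces it are shown because they set the paired Mdh2 transcripts apart. They were read 5′ to 3′ on the gene's strand from the GENCODE M21 transcript sequences, with positions on GRCm38. Capitals mark the exon, and lower case the 20 bases of the neighbouring exon on each side. Mdh2 exon 2 is chr5:135783305-135783473 (+ strand).
Mdh2-201 with exon 2: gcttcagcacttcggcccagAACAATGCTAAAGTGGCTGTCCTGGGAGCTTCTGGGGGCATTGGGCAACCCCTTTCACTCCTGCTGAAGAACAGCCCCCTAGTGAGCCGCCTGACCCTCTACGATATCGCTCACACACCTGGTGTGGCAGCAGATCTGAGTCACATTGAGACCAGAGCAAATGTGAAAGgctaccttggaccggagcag
Mdh2-203 without it: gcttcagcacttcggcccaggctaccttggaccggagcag

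**Figure D3:**
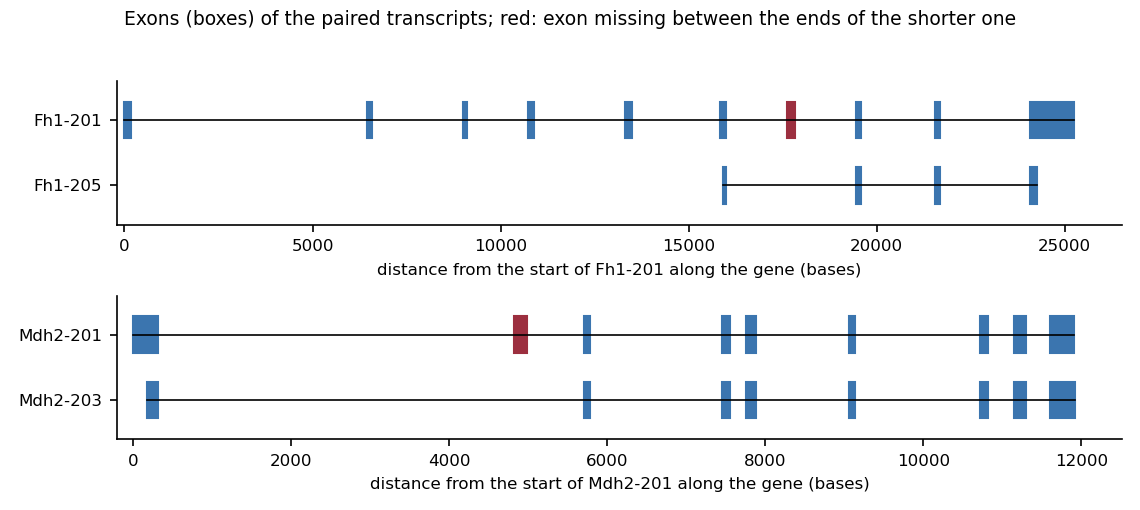
Exons (boxes) of the transcript pairs against the distance in bases from the start of the longer transcript, with introns as lines; red marks the exon that the shorter transcript leaves out between its own ends. Fh1-205 covers only the last part of the gene, whereas Mdh2-203 spans nearly the same distance as Mdh2-201.

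Both exon-skipping transcripts were higher in every MI prednisone heart than in any other heart, as the plot of transcripts by library shows. For this split of the MI prednisone hearts from all others, here and below, no share of all transcripts was counted. Fh1-205 was 90.4, 91.1 and 106 TPM in sham hearts with vehicle, 93.0, 97.5 and 119 with prednisone, 74.5, 78.0 and 83.4 after MI with vehicle, and 173, 189.9 and 146 after MI with prednisone. The full-length Fh1-201 was 104, 92.0 and 87.5 TPM after MI with vehicle and 68.1, 79.8 and 86.2 with prednisone, and thus lower in each treated heart. In a limma fit over 27769 transcripts, chosen after the gene sums had been seen, Fh1-205 was higher with prednisone after MI by 1.09 ± 0.13 (adjusted p = 0.000294), and Fh1-201 was not called (-0.28 ± 0.11, adjusted p = 0.0792). Of all transcripts, 33% were called in this comparison, 5.92% higher and 27.1% lower. Fh1-201 was called without MI prednisone mouse 3 (-0.35, adjusted p = 0.0379; range over 10 alternatives 0.0379 to 0.529) and turned positive after rescaling (0.18).

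Mdh2-203 was 103, 72.8 and 104 TPM in sham hearts with vehicle, 106, 104 and 125 with prednisone, 70.3, 84.2 and 85.0 after MI with vehicle, and 368, 435 and 235 after MI with prednisone. The lowest MI prednisone heart, at 235 TPM, thus stood above the highest of the others, at 125 TPM. Mdh2-201 was 569.8, 555 and 528 TPM after MI with vehicle and 385, 378 and 463 with prednisone, without overlap. Mdh2-203 was higher with prednisone after MI by 2.06 ± 0.22 (limma adjusted p = 0.000152) and Mdh2-201 lower, at -0.44 ± 0.11 (adjusted p = 0.0106). After rescaling, where 26.1% of all transcripts were called, Mdh2-203 was at 2.52 and Mdh2-201 at 0.03, no longer called.

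As a share of the gene, which no scaling between libraries can move, Mdh2-203 made up 10.4% to 14.9% of Mdh2 in the 9 hearts of the other groups and 48.3%, 52.8% and 32.8% in the MI prednisone hearts. Fh1-205 made up 40.9% to 48% of Fh1 in those 9 hearts and 71.4%, 68.9% and 61.1% in the MI prednisone hearts. Shares moved widely in this comparison: of 27849 transcripts with a mean share of 5% to 95% of their gene, 17.3% had a share higher in all 3 MI prednisone hearts than in the 3 with vehicle, and 19.5% a lower one, against 5.93% and 6.05% for prednisone in sham hearts. For 3 libraries against 3, the smallest two-sided p of an exact permutation test is 0.1, and shares are given without a test.

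**Figure D4:**
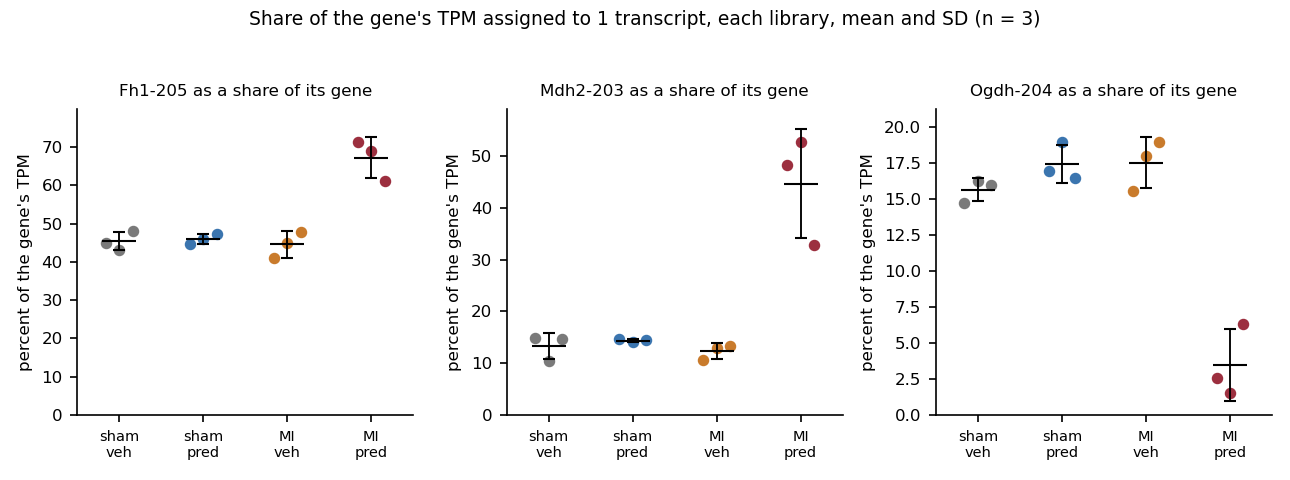
Percent of the gene's TPM held by Fh1-205, Mdh2-203 and Ogdh-204 (vertical axes, from 0) in each library; points are libraries, and the bar and whiskers are the mean and SD of 3. In all 3 panels the 9 hearts of the first 3 groups sit together and the MI prednisone hearts stand apart, with mouse 3 nearest to the rest.

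Ogdh and Idh3a also had a transcript that was lower in every MI prednisone heart than in any other heart, least so in mouse 3. Ogdh-204 (4106 bases) has the same coding exons as Ogdh-201 (4127 bases) and differs only at its untranslated ends. It was 67.8, 79.7 and 79.6 TPM in sham hearts with vehicle, 89.0, 101 and 91.4 with prednisone, 71.8, 82.1 and 78.3 after MI with vehicle, and 7.45, 4.30 and 25.2 after MI with prednisone. That is 14.7% to 19% of Ogdh in the other 9 hearts and 2.56%, 1.56% and 6.29% in the MI prednisone hearts. The change of Ogdh-204 was -2.89 ± 0.42 on the log2(TPM + 1) scale (limma adjusted p = 0.000877), and remained called after rescaling (-2.44). Ogdh-201 was not called (-0.20 ± 0.12, adjusted p = 0.228), with 369.8, 357 and 316 TPM after MI with vehicle and 280.3, 269.7 and 366 with prednisone; without MI prednisone mouse 3 it was called (-0.33, adjusted p = 0.0245; range over 10 alternatives 0.0245 to 0.527).

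Idh3a was spread over 4 transcripts of at least 5% of the gene each. Idh3a-204, annotated as a target of nonsense-mediated decay, was 21.6, 43.9 and 35.9 TPM after MI with vehicle and 0.921, 3.31 and 12.8 with prednisone (-2.78 ± 0.55, limma adjusted p = 0.00394). The coding Idh3a-205 fell by 1.03 ± 0.22 (adjusted p = 0.00578), from 95.3, 66.0 and 67.4 to 31.5, 27.8 and 54.2 TPM. The coding Idh3a-201 was higher by 1.57 ± 0.31 (adjusted p = 0.00369), at 63.6, 72.7 and 58.8 TPM against 10.6, 30.1 and 28.8 with vehicle. In sham hearts Idh3a-201 was 44.0 to 55.8 TPM with vehicle and 43.0 to 57.2 with prednisone. Its MI against sham change was -1.16 under vehicle (limma adjusted p = 0.0667) and 0.39 under prednisone (adjusted p = 0.407), neither called. Idh3a-203, which retains an intron, was not called (-0.15 ± 0.16, adjusted p = 0.489). The Idh3a sum, which was not called (-0.26 ± 0.11), thus adds up transcripts that moved by more than 1 log2 unit each way. After rescaling Idh3a-205 was no longer called (-0.58).

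The interaction was called for 7 of these 10 transcripts: Fh1-205 (0.99), Mdh2-203 (1.79), Idh3a-201 (1.55), Mdh2-201 (-0.56), Idh3a-205 (-1.04), Ogdh-204 (-3.20) and Idh3a-204 (-3.22), where 18.7% of all transcripts were called. The calls for Fh1-205, Mdh2-203 and Ogdh-204 remained in all 16 alternatives, including each library left out. Length correction was applied to gene sums only and is not among those 16. Those for Mdh2-201, Idh3a-201 and Idh3a-205 were lost when any 1 of 6, 7 and 9 libraries was left out, with adjusted p up to 0.0703, 0.0766 and 0.0935. After rescaling the interactions of Mdh2-201 (-0.015), Idh3a-205 (-0.50) and Idh3a-204 (-2.72) were not called. Between MI and sham hearts under prednisone, where 22.3% of all transcripts were called, Fh1-205 (0.71) and Mdh2-203 (1.58) were higher, and Fh1-201 (-0.58), Mdh2-201 (-0.67), Ogdh-201 (-0.48), Ogdh-204 (-3.16), Idh3a-204 (-2.77) and Idh3a-205 (-1.09) lower. After rescaling Fh1-201 (-0.49), Mdh2-201 (-0.58) and Ogdh-201 (-0.39) were not called. The Ogdh-201 call was lost without sham prednisone mouse 3 (adjusted p = 0.0600) or MI prednisone mouse 1 (0.0691) or 2 (0.0674). Neither MI under vehicle nor prednisone in sham hearts gave a call among the 10, where 2.84% and 0.054% of all transcripts were called. The remaining 5 enzymes, Cs, Idh2, Idh3b, Idh3g and Dlst, each came almost wholly from 1 transcript, with 94.2% to 100% of the gene in every library. Idh2-201 held 98.0%, 95.6% and 98.5% of Idh2 in the MI prednisone hearts and 98.6% to 99.1% in all other hearts. The lowest share, 94.2%, was that of Idh3g-201 in MI prednisone mouse 2.

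**Figure D5:**
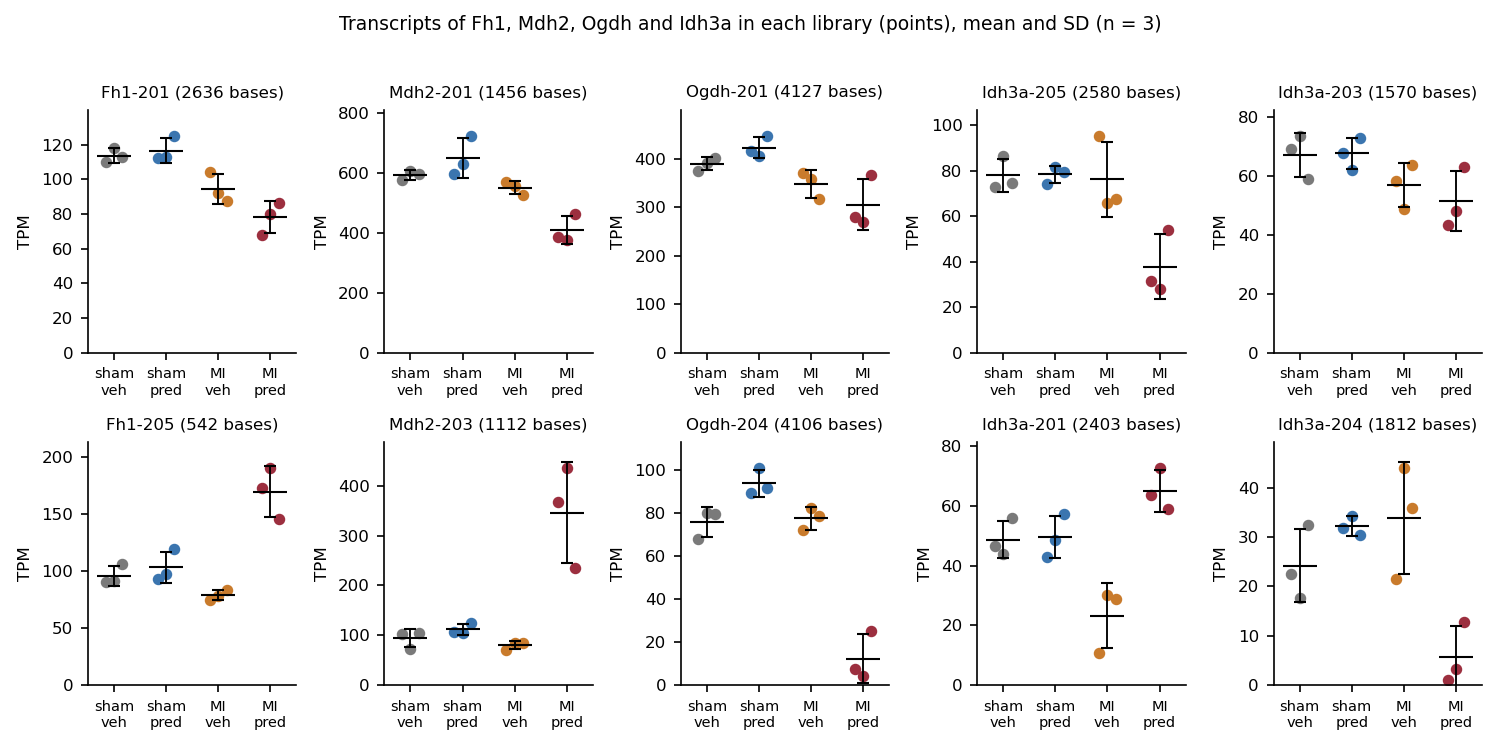
TPM of the 10 main transcripts of Fh1, Mdh2, Ogdh and Idh3a (vertical axes, from 0) in each library; points are libraries, and the bar and whiskers are the mean and SD of 3, with whiskers cut off at 0. Fh1-205, Mdh2-203 and Idh3a-201 are highest, and Ogdh-204, Idh3a-204 and Idh3a-205 lowest, in the hearts with MI and prednisone.

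Transcripts of 1 gene share most of their bases, so their separate TPM values are estimates of how shared reads divide. Length moved with the comparison: for prednisone against vehicle after MI, the median change of genes fell from -0.029 for transcripts under 1000 bases (1776 genes) to -0.47 from 2000 up to 4000 bases (5128 genes) and -0.69 from 8000 bases (220 genes). Of all transcripts tested under 1000 bases, 8.29% were called higher and 15.8% lower, and of those of 4000 bases or longer, 2.72% and 50%. Of tested transcripts annotated as targets of nonsense-mediated decay 9.38% were called higher, and of those retaining an intron 16.2%, against 3.5% of coding ones. The part of read coverage along transcripts in the shifts of Fh1, Mdh2, Ogdh and Idh3a was not tested.

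The other 9 nuclear genes of the cycle, which include those for succinyl-CoA ligase, succinate dehydrogenase and the shared E3 component, were lower or not called on the TPM scale. After MI under vehicle, where 0.904% of all genes were called lower, 1 of the 9 was called, Sdhc, a membrane anchor of succinate dehydrogenase (-0.36 ± 0.10, limma adjusted p = 0.0375), and the median was -0.22; 5 were called lower after rescaling and 3 after length correction. Under prednisone, where 14.1% of all genes were called lower, MI lowered 6 of the 9, with a median of -0.53, among them Dld (-0.76), Suclg2 (-0.75), Sdha (-0.72), Sucla2 (-0.59) and Sdhc (-0.44). That count was 3 after rescaling and 2 after length correction. Prednisone after MI, where 34.9% of all genes were called lower, lowered 3, namely Dld (-0.51 ± 0.10, adjusted p = 0.00404), the E3 component that works with Ogdh and Dlst, Suclg2 (-0.47 ± 0.11, adjusted p = 0.00714) and Sdha (-0.31 ± 0.11, adjusted p = 0.0434). None of the 9 was called higher there on the TPM scale, where Suclg1 (0.23), Sdhb (0.15) and Sdhd (0.14) had positive changes that did not pass. After rescaling Dld was at -0.05, Suclg2 at -0.01 and Sdha at 0.16, none called, and Suclg1 (0.69), Sdhb (0.61) and Sdhd (0.60) were called higher. None was called for prednisone in sham hearts, and the interaction was called for Dld (-0.63) and Suclg2 (-0.53), but for none of the 9 after rescaling or length correction.

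Among 12 cytosolic counterparts and side enzymes, MI under vehicle raised Me2, a mitochondrial malic enzyme (1.03 ± 0.31, limma adjusted p = 0.0441), and lowered Me3 (-0.33 ± 0.10, adjusted p = 0.0494). Of all genes, 15.1% were called higher and 0.904% lower in that comparison. The Me2 call was lost after rescaling (0.63, adjusted p = 0.0603), and no gene of the 12 was called higher after length correction. Prednisone after MI lowered Me2 (-1.28), Glud1, which makes 2-oxoglutarate from glutamate (-0.92), and Mdh1, the cytosolic malate dehydrogenase (-0.56). There, 34.9% of all genes were called lower. Mdh1 was at 1028 ± 56 TPM after MI with vehicle and 712 ± 202 with prednisone (SD, n = 3 each), and it was at -0.10 and not called after rescaling. The count of 3 was 2 after rescaling or length correction. MI under prednisone, where 14.1% of all genes were called lower, lowered 5 of the 12: Mdh1 (-0.95), Gpt2 (-0.74), Glud1 (-0.63), Got1 (-0.50) and Got2 (-0.44). After rescaling or length correction, 3 were called. Of 6 relatives and lipoylation genes of the 2-oxoglutarate dehydrogenase complex, Ogdhl, a paralog of Ogdh, was lower after MI under prednisone (-0.71 ± 0.17, adjusted p = 0.0150), a call lost after rescaling (-0.62, adjusted p = 0.1003). Mrps36, which codes for a small subunit of the complex, was higher with prednisone after MI (0.38 ± 0.12, limma adjusted p = 0.0287), where 2.5% of all genes were called higher. It was also higher after rescaling (0.84), while none of the 6 was called after length correction.

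How the 9 enzymes varied together across the 12 libraries is given as a description, because the libraries share their groups and scaling. Cs and Idh3a had a Pearson r of 0.98 and Cs and Ogdh of 0.97, on log2(TPM + 1), while Fh1 and Mdh2 had an r of 0.90 with each other. Idh2 was less close to Cs (0.55), Idh3a (0.48) and Ogdh (0.47), and had an r of 0.43 with Mdh2. Fh1 and Ogdh had an r of -0.42, and Fh1 with the mean of the other 8 an r of 0.060. After rescaling the r of Fh1 and Ogdh was 0.41, and that of Fh1 and Mdh2 0.98. On that scale Mdh2 had an r of 0.91 with Idh2, 0.90 with Dlst and 0.86 with Idh3b, and Fh1 of 0.86 with Idh2. Lower values remained for Fh1 with Cs (0.65) and Idh3a (0.59), and for Mdh2 with Ogdh (0.54). Among the enzymes other than Fh1 and Mdh2, the lowest rescaled r was 0.73, for Idh2 and Ogdh. The 10 genes most like the mean of the 9 enzymes were Atp5a1 (r = 0.95), 0610009O20Rik, Immt, Magix, Vdac3, Pdhb, Echs1, Kyat3, Pfkm and Ndufs1 (r = 0.93), chosen as the highest Pearson r over the 12 libraries. Atp5a1 encodes a subunit of ATP synthase, Ndufs1 a subunit of respiratory complex I, Pdhb a subunit of pyruvate dehydrogenase and Echs1 an enzyme of fatty acid oxidation. After rescaling 4 of these 10 genes, Immt, Atp5a1, 0610009O20Rik and Pdhb, were still among the 10 most alike.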

How the data were processed

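RNA of myocardium was measured in 12 mice (4 groups of 3, grouped by title) as stranded mRNA libraries, per the labels' protocols. The authors deposited TPM values for 105129 transcript rows, and every column sums to 1000000 TPM. Per the submitters' processing notes, Trimmomatic, HISAT2 and kallisto were used with mm10; their roles and versions are not given in the sources used here. TPM keeps no read depth, so the depth behind each value is unknown and precision rests on 3 libraries per group.

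Transcripts were summed by gene symbol, and the 13158 genes at 1 TPM or more in no fewer than 3 libraries were tested as log2(TPM + 1), which understates changes of low values. limma 3.58.1 in R 4.3.3 (lmFit, eBayes with trend) was fitted with 4 group means over all 12 libraries, and p-values were adjusted by Benjamini-Hochberg over all genes of each of 6 comparisons, with calls at 0.05. The test for normalized values was used in place of a count test because the file holds TPM. The fit was tested on simulated data. Alternatives were median-ratio size factors over 15195 genes, no filter, no trend, a pseudocount of 0.1, each gene's most abundant transcript, a replicate block, only the groups compared, mitochondrial, copy and globin transcripts removed, a loess correction (span 0.5) on transcript length, and each library left out. The loess correction took out each library's overall scale along with its length trend. A fit over 27769 transcripts was added after seeing the data. Transcript names, lengths and exons came from GENCODE M21 (GRCm38), whose identifiers matched 98.6% of transcripts. Figures were drawn with Python 3.11.15 and matplotlib 3.10.9.

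The genes named are the 9 enzymes, list genes called in any comparison, the 10 genes most correlated with the enzymes' mean, and member transcripts of at least 5% of their gene. The members and lists were chosen with earlier results of these data known, so no count over them is independent support. Values of 1 listed gene and 1 exon sequence are not reported here.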

Additional observations from a re-analysis of the deposited data

Results flagged for a closer look

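The prednisone effect on Ogdh after MI differed from its effect in sham hearts by -0.63 on the log2 scale (limma adjusted p = 0.0329), a tested difference between the same contrast in 2 kinds of surgery. Of all genes, 21.3% were called in this interaction. In TPM, Ogdh was lower with prednisone in 3 of 3 MI hearts (-0.47 against vehicle), as were 42.6% of all genes. It was higher in 3 of 3 sham hearts (0.15), as were 15.6%. After rescaling, the Ogdh groups overlapped in both comparisons. The difference was -0.08 after median-ratio rescaling and 0.07 after length correction, neither called, and its adjusted p ran from 0.00232 to 0.930 over 21 alternatives.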

How the results depend on the processing

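No depth is known for these TPM values, so only the spread between 3 libraries limits them. The count of enzymes called held within 1.5 times in all 6 comparisons without the trend, with a pseudocount of 0.1 and with the replicate block, where it was 0, 4, 2, 0, 1 and 3 as in the fit reported (MI against sham under vehicle and under prednisone, prednisone against vehicle after MI and in sham hearts, the interaction, and MI prednisone against sham vehicle). The mean r between the deviations of same-numbered libraries ran from -0.37 to 0.11 over the comparisons. With 3 libraries per group, this cannot settle whether the numbers pair the mice, and the fit reported does not pair them. The cause of each difference below was not tested.

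For MI against sham under vehicle the count became 3 after median-ratio rescaling, 1 with mitochondrial, copy and globin transcripts removed and 1 after length correction. For MI against sham under prednisone it became 0 after rescaling, after length correction and after the replicate block with length correction. For prednisone against vehicle after MI it became 0 with only the groups compared, 1 (Fh1) with those transcripts removed, and 1 after length correction with or without the block. For the interaction it became 1 in the other direction (Fh1, higher) after rescaling and with those transcripts removed, 0 without a filter, 3 with the most abundant transcript, and 0 after length correction with or without the block. For MI prednisone against sham vehicle it became 0 after rescaling and after length correction with or without the block, 5 with the most abundant transcript and 1 with only the groups compared. The sham count was 0 throughout.

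With each library left out in turn, the count ran from 0 to 1, 3 to 6, 1 to 5, 0 to 0, 0 to 4 and 0 to 4 in that order. Without MI vehicle mouse 1 it was 1 for MI against sham under vehicle, and for prednisone against vehicle after MI it was 1 without MI prednisone mouse 1 or 2 and 5 without mouse 3. For the interaction it was 4 without MI prednisone mouse 3 and 2 without MI vehicle mouse 1, and without sham prednisone mouse 3 it was 1 in the other direction (Fh1, higher). Sign changes on leaving out 1 library were seen for enzymes not called: Idh2 from -0.17 to 0.013 (MI against sham under vehicle), -0.097 to 0.11 (prednisone against vehicle after MI), -0.15 to 0.062 (interaction) and -0.15 to 0.012 (MI prednisone against sham vehicle), Mdh2 from -0.069 to 0.062 (MI against sham under prednisone), Idh3b from -0.093 to 0.026 and Idh3g from -0.15 to 0.024 (prednisone against vehicle after MI), and Idh3g from -0.011 to 0.059 and Fh1 from -0.0028 to 0.13 (prednisone in sham hearts).

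Median-ratio rescaling turned the direction for prednisone against vehicle after MI (Cs 0.24, Idh3a 0.21, Idh3b 0.42, Idh3g 0.37, Dlst 0.37, Idh3a-203 0.31, Ogdh-201 0.27, Fh1-201 0.18, Mdh2-201 0.028), prednisone against vehicle in sham hearts (Idh2 -0.030, Idh3a -0.020, Idh3b -0.0011, Idh3g -0.048, Fh1 -0.00067), the interaction (Cs 0.22, Idh2 0.51, Idh3a 0.23, Idh3b 0.42, Idh3g 0.42, Dlst 0.34, Idh3a-203 0.38, Ogdh-201 0.23, Fh1-201 0.23) and MI against sham under prednisone (Mdh2 0.073). Length correction turned it for prednisone against vehicle after MI (Cs 0.28, Idh3a 0.14, Idh3b 0.26, Idh3g 0.15, Ogdh 0.12, Dlst 0.39), the interaction (Cs 0.25, Idh2 0.33, Idh3a 0.14, Idh3b 0.21, Idh3g 0.14, Ogdh 0.066, Dlst 0.36) and MI prednisone against sham vehicle (Mdh2 -0.031), with the same values under the replicate block with length correction. Removing mitochondrial, copy and globin transcripts turned prednisone against vehicle after MI (Idh3b 0.036), prednisone against vehicle in sham hearts (Idh2 -0.024, Idh3a -0.015, Idh3g -0.043), the interaction (Idh2 0.12, Idh3b 0.031, Idh3g 0.034) and MI prednisone against sham vehicle (Mdh2 -0.035). The most abundant transcript in place of the gene sum turned prednisone against vehicle after MI (Idh2 -0.0036, Mdh2 -0.44), the interaction (Mdh2 -0.56) and MI prednisone against sham vehicle (Mdh2 -0.54).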
